A study of Mus musculus with 6 samples.

Results

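The genes described here are 10 members of the insulin and insulin-like growth factor (IGF) system, among the 55809 genes in the deposited counts. They are the receptors *Igf1r*, *Igf2r* and *Insr*, the docking adaptors *Irs1* and *Irs2*, and the binding proteins *Igfbp2*, *Igfbp3*, *Igfbp4*, *Igfbp5* and *Igfbp6*. They were taken by gene name, and the rule itself used no measured value. The members and the pathway list below were chosen with earlier results of these data known, so their shares called are descriptions. All 10 are in the counts and 9 passed the expression filter, *Igfbp2* being too low to test. They were measured by poly(A) RNA-sequencing in HC11, a clonal line of mouse mammary epithelial cells that the study uses as a luminal line. Cells were cultured in medium without BMP7 (Ctrl, 3 libraries) or with BMP7, a bone morphogenetic protein (3 libraries), to look for factors that luminal cells make under BMP7. The methods describe starvation of HC11 cells before BMP7 in a medium for which no serum, EGF or insulin is listed, whereas the growth medium holds all of them, and do not name the duration of BMP7 used for sequencing. Nothing in the labels says that libraries of a condition came from separate cultures, so the spread between them may be technical. Libraries are named by the numbers in their column names, which for BMP7 are 1, 3 and 4.

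Insulin and the IGFs act through receptor tyrosine kinases. *Insr* encodes the insulin receptor and *Igf1r* the type 1 IGF receptor, which share a common architecture and can form hybrids, and *Irs1* and *Irs2* encode adaptors that the active receptors phosphorylate and that recruit PI3K. *Igf2r* encodes the mannose 6-phosphate receptor, which takes up IGF2 for degradation and carries lysosomal enzymes. The IGF binding proteins are secreted, hold IGFs outside the cell, and can limit or prolong their access to *Igf1r*. In the mammary gland the pathway is known for its part in ductal growth, and *Igfbp5* for its rise during involution.

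Totals ranged from 14607938 to 23748970 fragments per library, lowest in BMP7 library 1 and highest in BMP7 library 3. The BMP target *Id1* rose from between 7.61 and 8.21 CPM (counts relative to the TMM-normalised library size) in Ctrl to between 142 and 162 with BMP7, and *Smad6*, an inhibitory Smad, had 25.0 to 29.3 CPM with BMP7 and at most 6 in Ctrl. Of the markers checked, 8 luminal genes had sums of 1432 to 1453 CPM with BMP7 and 1775 to 1801 in Ctrl, with 4 lower and none higher, and *Krt19* was under 1 CPM. The 8 basal genes had sums of 7511 to 8942 CPM with BMP7 and 6551 to 6687 in Ctrl, with 4 higher and none lower, and *Acta2* and *Myh11* were under 1 CPM. The basal sum was thus above the luminal sum in every library of this line, which the study uses as luminal. *Krt5* and *Krt14* made up most of the basal sum, with Ctrl means of 2643 and 3489 CPM. As the lists hold different genes and the sums are not per length, they do not class the line. The sums of 12 adipocyte genes were 135 and 122 CPM in BMP7 libraries 3 and 4, against 77.6 in BMP7 library 1 and 79.4 to 90.6 in Ctrl, with 7 genes called higher and 1 lower. *Pnpla2*, the 1 called lower, made up most of the Ctrl sums. It was at 57.3 to 61.8 CPM in Ctrl and 42.9, 44.4 and 43.7 in BMP7 libraries 1, 3 and 4. In BMP7 library 1, *Fabp4* at 9.20 CPM was above the Ctrl range of 3.86 to 6.98, and *Adipoq* at 1.05 was within that of 0.639 to 1.16. The low sum of BMP7 library 1 thus does not hold for every adipocyte gene. The sums of 12 macrophage genes were 29.5 and 28.4 CPM in BMP7 libraries 3 and 4, against 53.2 in BMP7 library 1 and 52.5 to 56.7 in Ctrl, with 3 lower and none higher. The 8 fibroblast genes summed to 103 to 122 CPM with BMP7 and 115 to 126 in Ctrl, with 4 higher and 1 lower. Most of this sum was *Col1a1*, the 1 called lower, and *Pdgfra*, which was not called. The 4 called higher included *Dcn*, at 1.74, 4.44 and 4.90 CPM in BMP7 libraries 1, 3 and 4 against 0.737 to 1.73 in Ctrl. The 6 endothelial genes summed to 24.0 to 26.3 CPM and 13.3 to 15.9, nearly all of it *Pecam1*, the 1 gene tested and higher. No listed marker was at 0 in every library. The part of these differences in the results below was not tested, and the counts of members and pathway genes are also given for BMP7 library 1 alone against Ctrl. In that fit the spread comes from the Ctrl libraries only and the lone library is assumed to vary like them, so its counts are a description and for single genes only its fold changes are given. In bulk RNA, fewer cells of a type and less RNA per cell cannot be told apart.

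With BMP7, 4 of the 9 members tested rose and none fell, where a call needed a Benjamini-Hochberg adjusted p below 0.05 in edgeR's quasi-likelihood test and a change of more than 1.2-fold. They were *Igfbp3*, *Igfbp5*, *Igfbp6* and *Irs1*, so that 3 of the 4 binding proteins tested, 1 of the 2 adaptors and none of the 3 receptors passed. DESeq2 also called 4 higher and 0 lower, and at an unadjusted p under 0.05 in edgeR 4 were higher and 2, *Insr* and *Irs2*, lower. Of all 15733 genes tested, 5.99% rose, 5.38% fell and 11.4% were called in either direction. The members' median log2 fold change was 0.29, against -0.01 over all genes tested. The BMP7 libraries lay wholly above the Ctrl libraries for 4 members and wholly below them for 1, *Irs2*, where 29.8% of all genes tested were separated in either direction. Only *Igfbp3* stayed past the thresholds in each of the 6 fits that left out 1 library, in which between 2 and 3 members were called. With BMP7 library 1 alone against Ctrl, 1 member was past them.

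**Figure D1:**
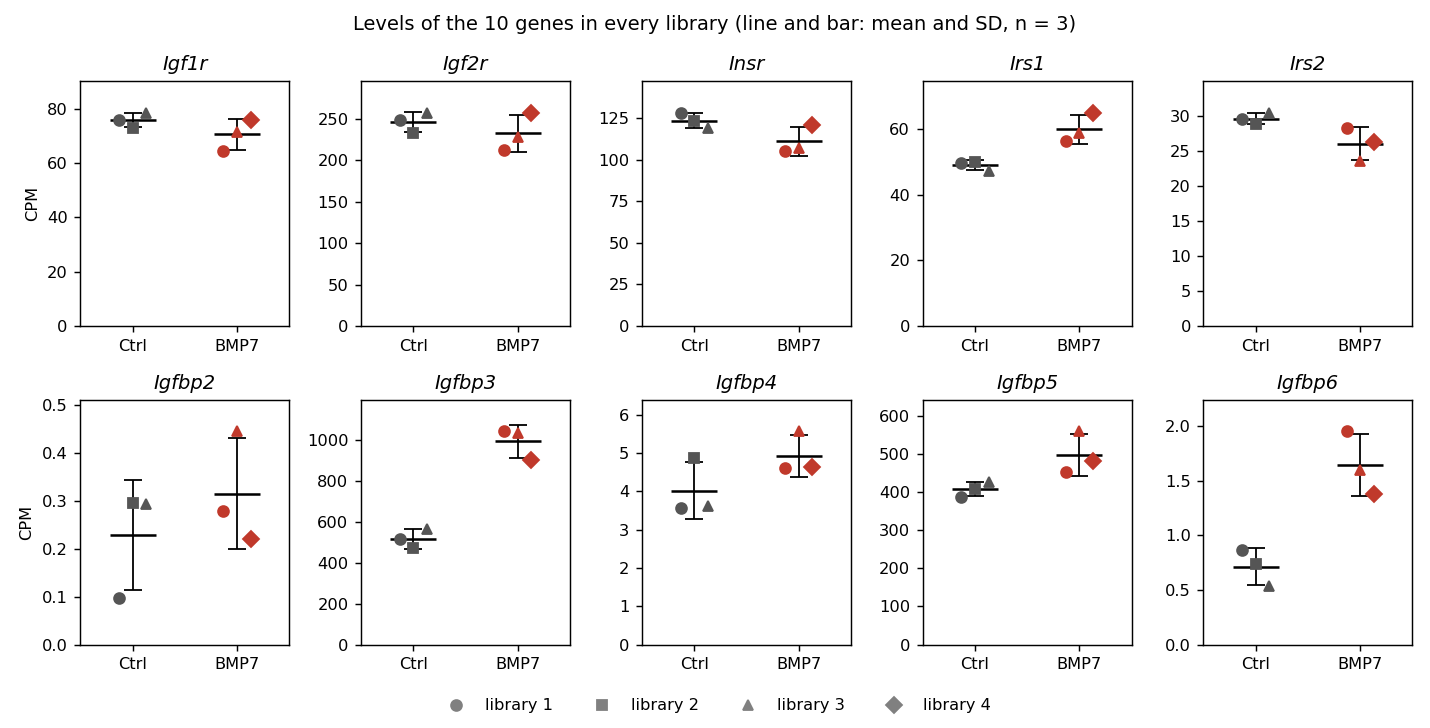
Level of each of the 10 genes in CPM (vertical axes, each from 0) in the 3 Ctrl and the 3 BMP7 libraries, with the shape of each point giving the library number, the mean as a line and the SD as a bar. *Igfbp3*, from 902 to 1043 CPM with BMP7 against 471 to 568 in Ctrl, has the widest gap between the groups for its spread, and the receptors overlap.

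**Figure D2:**
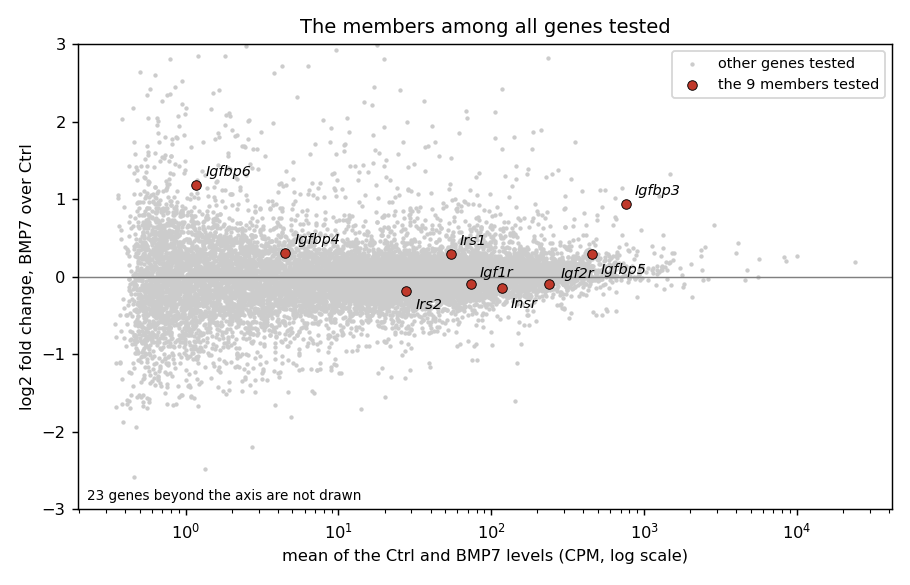
Log2 fold change of BMP7 over Ctrl (vertical axis) against the mean level in CPM (horizontal axis, log scale) for all 15733 genes tested, with the 9 members in red. *Igfbp3* combines a high level with a log2 fold change of 0.94, *Igfbp6* lies near 1 CPM, and the receptors lie just under 0. The 23 genes beyond 3 on the vertical axis are not drawn.

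The levels of the members spread widely. Per kilobase of summed exon length, the scale used to compare genes, the Ctrl means fell in the order *Igfbp3* (166 CPM per kb), *Igfbp5* (67.9), *Igf2r* (26.5), *Insr* (8.97), *Irs1* (5.35), *Irs2* (4.67), *Igf1r* (4.52), *Igfbp4* (0.910), *Igfbp6* (0.642) and *Igfbp2* (0.124). Only the neighbours *Irs2*, at 4.55 to 4.81 CPM per kb, and *Igf1r*, at 4.35 to 4.67, overlapped over the Ctrl libraries. With BMP7 *Igfbp6* passed *Igfbp4*, at 1.24 to 1.75 against 1.04 to 1.26 CPM per kb, and these ranges overlapped. By mean level over the 6 libraries *Igfbp3* stood at the 98.9 percentile of the genes tested and *Igfbp5* at 95.8, and *Igfbp4* and *Igfbp6* at 19.3 and 19.9. The binding protein family therefore held both the highest and the lowest levels among the members.

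The ligands were barely measured in these cells. *Igf2*, *Ins1* and *Ins2*, which encode IGF2 and the insulins, had 0 counts in every library, which allows up to 3 counts in each and covers counting error only. Over 64.5% of its exon length *Igf2* overlaps other genes, where fragments would not be counted. *Igf1* had 3, 7 and 2 counts in Ctrl libraries 1, 2 and 3, and 1, 28 and 12 in BMP7 libraries 1, 3 and 4. The higher *Igf1* counts were thus those of BMP7 libraries 3 and 4, which had the higher adipocyte sums, and a link was not tested. BMP7 library 1 had fewer *Igf1* counts than any Ctrl library. *Igf1* did not pass the filter. Fitted without the filter, *Igf1* had an adjusted p of 0.0411 in edgeR's quasi-likelihood test and a log2 fold change of 1.80. That fold change depends on the prior count at such counts and rests on BMP7 libraries 3 and 4. The adjusted p of that fit does not compare with the main fit. For *Igfbp3* the same edgeR test gave 1.70e-46 without the filter and 3.20e-07 with it.

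None of the 3 receptors passed the thresholds. *Igf1r*, at 67602575 to 67883416 of chromosome 7 in the mm39 annotation, was at 76.0, 73.0 and 78.4 CPM in Ctrl libraries 1, 2 and 3 and at 64.5, 71.4 and 75.7 in BMP7 libraries 1, 3 and 4. The groups overlapped, with a log2 fold change of -0.10 (95% interval -0.25 to 0.05, edgeR adjusted p = 0.386). *Insr*, on chromosome 8 from 3172061 to 3329617, was at 128, 123 and 119 CPM in Ctrl and 105, 107 and 121 with BMP7. BMP7 library 4 lay within the Ctrl range and the other two below it, with a log2 fold change of -0.15 (95% interval -0.29 to -0.01, edgeR adjusted p = 0.159). *Igf2r*, on chromosome 17 from 12901293 to 12988551, was at 249, 233 and 257 CPM in Ctrl and 212, 228 and 257 with BMP7. Its groups overlapped too, with a log2 fold change of -0.09 (95% interval -0.24 to 0.06, edgeR adjusted p = 0.489). The intervals of *Igf1r* and *Igf2r* thus leave out a fall or a rise of 1.2-fold, 0.26 on the log2 scale, and that of *Insr* reaches just past a fall of that size. Over the fits that left out 1 library the log2 fold change was between -0.16 and -0.05 for *Igf1r*, -0.17 and -0.03 for *Igf2r*, and -0.22 and -0.11 for *Insr*. Without BMP7 library 4, *Insr* had an edgeR adjusted p = 0.0384 at -0.22, under the fold threshold. With the library number as a replicate block, the values were -0.20 (edgeR adjusted p = 0.0308) for *Igf2r* and -0.21 (edgeR adjusted p = 0.0361) for *Insr*, under the fold threshold too. That fit takes the change only from libraries numbered 1 and 3, which occur in both conditions, so that BMP7 library 4 does not inform it. The labels do not tie these numbers to pairs.

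The 3 receptors shared an order among the BMP7 libraries, lowest in library 1 and highest in library 4. *Irs1*, at 56.2, 58.7 and 64.8 CPM in BMP7 libraries 1, 3 and 4, had the same order. The receptors have long transcripts, with summed exon lengths of 16791 bases for *Igf1r*, 13746 for *Insr* and 9308 for *Igf2r*. That of *Irs1* is 9144 bases. Levels in BMP7 library 4 over BMP7 library 1 were compared for the 1698 genes tested with at least 9000 bases of exons. Their median log2 ratio was 0.13, against -0.00 over all genes tested. The part of this in the values of the receptors and *Irs1* was not tested. With BMP7 library 1 alone against Ctrl the log2 fold changes were -0.23 for *Igf1r*, -0.22 for *Igf2r* and -0.23 for *Insr*. The proportions between the receptors differed little. The per-length ratio of *Igf1r* to *Insr* was 0.504 ± 0.0292 in Ctrl and 0.520 ± 0.0217 with BMP7 (SD, n = 3 libraries each), and that of *Igf2r* to *Igf1r* was 5.86 ± 0.0931 and 5.93 ± 0.181. Both ratios overlapped between the groups. *M6pr*, which encodes the other mannose 6-phosphate receptor, had a log2 fold change of -0.01 (edgeR adjusted p = 0.916).

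Of the adaptors, *Irs1* rose and *Irs2* did not pass the thresholds. *Irs1*, on chromosome 1 from 82210822 to 82269137, was at 49.7, 49.8 and 47.1 CPM in Ctrl libraries 1, 2 and 3 and at 56.2, 58.7 and 64.8 in BMP7 libraries 1, 3 and 4. The groups were separated, with the BMP7 libraries on top, and *Irs1* rose by a log2 fold change of 0.29 (SE 0.07, edgeR adjusted p = 0.0101), close to the fold threshold. It was not called without Ctrl library 3 (log2 fold change 0.27, adjusted p = 0.0535) or without BMP7 library 4 (0.23, adjusted p = 0.0431, under the fold threshold), both in edgeR, and over all alternatives its adjusted p ranged from 0.00355 to 0.862. Its log2 fold change was 0.20 with BMP7 library 1 alone. The predicted gene *Gm9747*, on the other strand, covers 30.9% of the exon length of *Irs1*, and fragments within that stretch were not counted for either gene. The level of *Irs1* thus leaves out that stretch. Its per-length values still divide by the whole exon length, and so understate it against other genes.

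*Irs2*, on chromosome 8 from 11034681 to 11058458, was at 29.5, 28.8 and 30.4 CPM in Ctrl and 28.2, 23.6 and 26.3 with BMP7. Every BMP7 library lay below every Ctrl library, but the difference did not pass the test, with a log2 fold change of -0.19 (95% interval -0.37 to -0.01, edgeR adjusted p = 0.164) and of -0.07 with BMP7 library 1 alone. The per-length ratio of *Irs1* to *Irs2* was 1.17, 1.2 and 1.07 in Ctrl and 1.38, 1.72 and 1.70 with BMP7, without overlap. In both conditions the ratio understates *Irs1*, as its length includes the uncounted stretch, while only 2.56% of the exon length of *Irs2* is overlapped. *Irs4*, a related adaptor at lower levels, is given with the pathway below.

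The largest change in CPM among the members was that of *Igfbp3*, the main carrier of IGFs in serum, where it forms a complex with the acid-labile subunit. *Igfbp3* lies on chromosome 11 from 7156086 to 7163923. It was at 516, 471 and 568 CPM in Ctrl libraries 1, 2 and 3 and at 1043, 1037 and 902 in BMP7 libraries 1, 3 and 4. The lowest BMP7 library thus stood far above the highest Ctrl library. From 518 ± 48.8 to 994 ± 79.6 CPM (SD, n = 3 each), *Igfbp3* rose 1.92-fold, a log2 fold change of 0.94 (SE 0.08, edgeR adjusted p = 3.20e-07), and stood at rank 338 by rise among the 15733 genes tested. Over the fits that left out 1 library its log2 fold change was between 0.87 and 1.01, and with BMP7 library 1 alone it was 1.01. Its adjusted p was at most 2.09e-05 over all alternatives, reached in edgeR without Ctrl library 2.

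*Igfbp5*, a matrix-binding member of the family, lies on chromosome 1 from 72897091 to 72914043. It was at 388, 409 and 426 CPM in Ctrl and 453, 559 and 481 with BMP7. The groups were separated, though by a small margin between Ctrl library 3 and BMP7 library 1, and *Igfbp5* rose 1.22-fold, a log2 fold change of 0.29 (SE 0.07, edgeR adjusted p = 0.0164). It was not called without Ctrl library 1 (log2 fold change 0.25, adjusted p = 0.0808), without Ctrl library 2 (0.29, adjusted p = 0.0742) or without BMP7 library 3 (0.20, adjusted p = 0.0808), all in edgeR. Its adjusted p ranged from 2.75e-04 to 0.917 over all alternatives, the highest again from glmTreat. Its log2 fold change was 0.16 with BMP7 library 1 alone. The 95% intervals of the log2 fold changes, 0.77 to 1.11 for *Igfbp3* and 0.13 to 0.45 for *Igfbp5*, did not overlap, and the per-length ratio of *Igfbp3* to *Igfbp5* was 2.55, 2.21 and 2.56 in Ctrl and 4.41, 3.56 and 3.60 with BMP7.

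*Igfbp6*, which prefers IGF2 over IGF1, lies on chromosome 15 from 102052797 to 102057946 and was low. It had 18, 15 and 11 counts in Ctrl, or 0.867, 0.737 and 0.538 CPM, and 28, 36 and 25 counts with BMP7, or 1.95, 1.60 and 1.38 CPM. The groups were separated, and *Igfbp6* rose 2.27-fold, a log2 fold change of 1.18 (SE 0.33, edgeR adjusted p = 0.0265) with a wide 95% interval of 0.47 to 1.89. The call held in 1 of the 6 fits that left out 1 library, that without BMP7 library 4. Without Ctrl libraries 1, 2 and 3 in turn the adjusted p was 0.0502, 0.0876 and 0.119, and without BMP7 libraries 1 and 3 it was 0.0759 and 0.0817, each in edgeR. Over the fits that left out 1 library its log2 fold change was between 1.02 and 1.35, and with BMP7 library 1 alone it was 1.44.

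*Igfbp4*, an inhibitory binding protein that the protease PAPP-A cleaves, lies on chromosome 11 from 98932070 to 98945218. It was at 3.56, 4.87 and 3.62 CPM in Ctrl and 4.60, 5.56 and 4.63 with BMP7, so that Ctrl library 2 lay within the BMP7 range. Its log2 fold change of 0.30 did not pass the test (95% interval -0.09 to 0.69, edgeR adjusted p = 0.320). *Igfbp2*, on chromosome 1 from 72863662 to 72891633, had 2, 6 and 6 counts in Ctrl and 4, 10 and 4 with BMP7. At this depth no difference in *Igfbp2* was detectable, and without the filter on low counts its adjusted p was 0.771 in edgeR's quasi-likelihood test. In an exact permutation test on log2 CPM, each member alone reached a two-sided p of at least 0.1, the smallest that 3 libraries against 3 allow, and *Igfbp3*, *Igfbp5*, *Igfbp6*, *Irs1* and *Irs2* reached it.

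**Figure D3:**
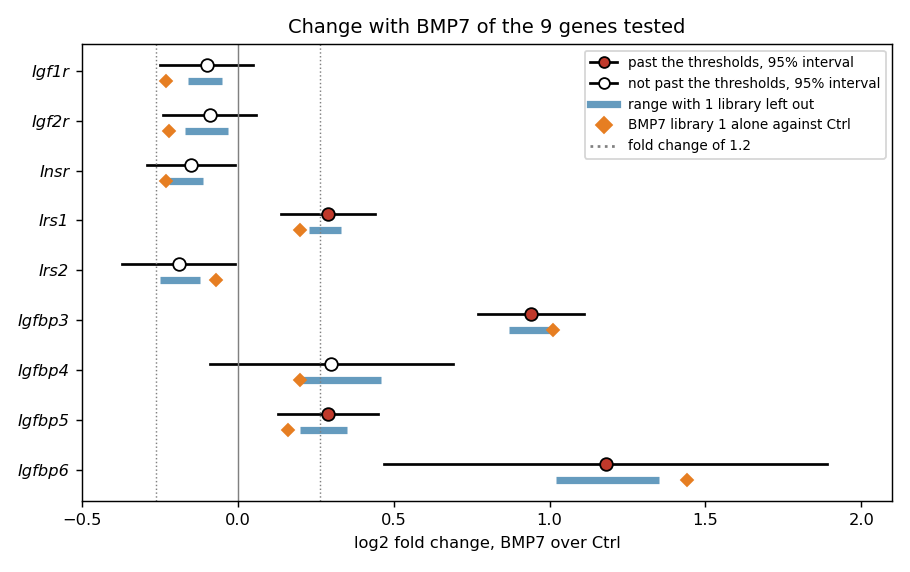
Log2 fold change of BMP7 over Ctrl for the 9 members tested, with its 95% interval (black), the range over the 6 fits that left out 1 library (blue) and the value for BMP7 library 1 alone against Ctrl (orange). *Igfbp3* and *Igfbp6* lie beyond a fold change of 1.2 (dotted lines) in all of these, the intervals of *Irs1* and *Igfbp5* straddle it, and the fold changes of the receptors lie between it and 0.

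The summed per-length level of the 5 binding proteins, given as a description without a test, was 231, 220 and 254 CPM per kb in Ctrl libraries 1, 2 and 3 and 412, 427 and 371 in BMP7 libraries 1, 3 and 4. Of the difference between the means, 168 CPM per kb, *Igfbp3* made up 90.4% and *Igfbp5* 8.91%. The share of *Igfbp3* in the sum went from 70.4% ± 1.85 to 78.7% ± 1.90 (SD, n = 3 each), and that of *Igfbp5* from 28.9% ± 1.72 to 20.6% ± 1.93, although its own level was higher. *Igfbp2*, *Igfbp4* and *Igfbp6* each stayed under 1% of the sum in every library. RNA levels do not give the amount of secreted protein, which was not measured here.

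**Figure D4:**
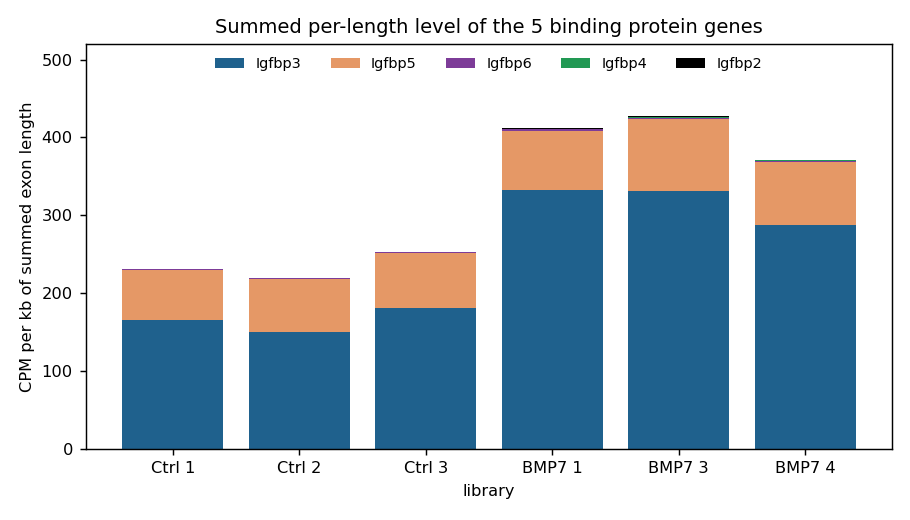
Summed level of the 5 binding protein genes in CPM per kb of summed exon length (vertical axis) in each library, stacked by gene. The sum is between 371 and 427 in the BMP7 libraries and between 220 and 254 in the Ctrl libraries, and *Igfbp3* (blue) makes up most of it.

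Neighbouring members of the family differed in level. *Igfbp2* and *Igfbp5* lie end to end on chromosome 1, on opposite strands with 5457 bases between them, and yet *Igfbp2* had at most 10 counts in any library while *Igfbp5* had between 6506 and 12567. *Igfbp1*, 3539 bases from *Igfbp3* on chromosome 11 and also on the opposite strand, had 0 counts in every library, where *Igfbp3* had between 9572 and 23336. No exon base of *Igf1r*, *Igf2r*, *Insr* or the 5 binding protein genes overlapped another gene. Among GENCODE vM21 transcripts, a match of at least 100 bases at 95% identity to another gene was found for *Irs1* and *Irs2*, with the genes that overlap them, and for 3.76% of the *Igfbp4* transcript, with *Ctdspl2*.

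Start regions of 300 bases, 250 before and 50 after the start in RefSeq on GRCm38.p6, were matched by symbol for 9 members, *Insr* being the other. They were searched on both strands for GGCGCC, a GC-rich element bound by BMP-activated Smads, GTCTG, a Smad box, GTAAACA, a FoxO site, and TATAAA. The windows of the 4 members that rose are shown because these were the members called. A shared regulation of them was not tested. That of *Irs2* is shown because it was the only window of a member with GGCGCC. They are printed on the gene's strand, with matches in capitals. The window of *Igfbp3* is chr11:7213874-7214173, that of *Igfbp5* chr1:72874816-72875115, that of *Igfbp6* chr15:102143936-102144235, that of *Irs1* chr1:82291390-82291689 and that of *Irs2* chr8:11008880-11009179.
*Igfbp3*: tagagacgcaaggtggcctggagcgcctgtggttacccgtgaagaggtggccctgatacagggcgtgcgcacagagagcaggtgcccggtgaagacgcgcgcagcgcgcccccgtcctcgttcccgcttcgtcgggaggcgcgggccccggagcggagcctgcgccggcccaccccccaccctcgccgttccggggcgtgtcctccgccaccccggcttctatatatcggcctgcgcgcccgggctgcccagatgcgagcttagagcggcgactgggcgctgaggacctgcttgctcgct
*Igfbp5*: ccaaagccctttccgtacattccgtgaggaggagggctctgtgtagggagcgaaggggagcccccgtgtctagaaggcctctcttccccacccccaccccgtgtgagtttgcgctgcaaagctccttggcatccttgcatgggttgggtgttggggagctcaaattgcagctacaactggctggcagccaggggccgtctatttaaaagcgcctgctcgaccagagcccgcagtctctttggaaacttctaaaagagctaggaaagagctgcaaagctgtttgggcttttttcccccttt
*Igfbp6*: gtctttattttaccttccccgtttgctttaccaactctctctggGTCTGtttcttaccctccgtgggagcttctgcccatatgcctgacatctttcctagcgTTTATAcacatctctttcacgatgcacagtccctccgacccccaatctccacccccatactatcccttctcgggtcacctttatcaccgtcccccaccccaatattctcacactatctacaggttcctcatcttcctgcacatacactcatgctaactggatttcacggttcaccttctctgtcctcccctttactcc
*Irs1*: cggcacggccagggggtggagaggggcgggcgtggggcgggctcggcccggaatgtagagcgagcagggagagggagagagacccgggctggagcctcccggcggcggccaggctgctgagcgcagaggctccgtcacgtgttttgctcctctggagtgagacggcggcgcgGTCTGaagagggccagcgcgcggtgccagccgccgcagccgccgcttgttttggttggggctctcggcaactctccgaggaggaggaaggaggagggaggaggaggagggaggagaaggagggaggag
*Irs2*: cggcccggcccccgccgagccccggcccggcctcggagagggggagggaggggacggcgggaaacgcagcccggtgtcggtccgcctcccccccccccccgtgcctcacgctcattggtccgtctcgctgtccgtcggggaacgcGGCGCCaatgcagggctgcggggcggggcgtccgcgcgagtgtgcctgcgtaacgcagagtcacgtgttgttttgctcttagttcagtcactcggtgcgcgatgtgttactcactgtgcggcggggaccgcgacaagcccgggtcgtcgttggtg

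The windows of *Igfbp3* and *Igfbp5*, the abundant members that rose, held none of these motifs as spelled here. Shorter or variant forms, such as GTCT without the last G, were not searched. GTCTG was in the windows of *Igfbp6* and *Irs1*, and also of *Igf1r*, *Igf2r* and *Igfbp2*, and in 49.6% of all 32851 windows. GGCGCC, in 11.9% of all windows, was found for *Irs2* at position -105 from the start. TATAAA was found for *Igfbp4* at -28 and, on the other strand, for *Igfbp6* at -148, and in 13.6% of all windows. GTAAACA was in no window of a member and in 3.65% of all. The windows of *Igfbp3* and *Irs1* were GC-rich, with 71.7% and 71.3% G or C, against 56.3% for *Igfbp5*, 49.7% for *Igfbp6* and a median of 52.7% over all windows. This was not particular to members that rose. *Igf1r* had 76%, *Irs2* 72%, *Igfbp4* 71.3% and *Igf2r* 70.7%, and the windows of *Igfbp2* had 67% and 57.3%. A match says only that these letters are in the window.

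Of 83 other genes of the pathway, 69 were tested, of which 9 rose and 7 fell, or 23.2%, where 11.4% of all genes tested were called. Their median log2 fold change was 0.01. With BMP7 library 1 alone against Ctrl, 8 of them were higher and 9 lower. Among further binding proteins *Igfbp7*, a related protein with low affinity for IGFs, was at 18.0, 16.4 and 21.4 CPM in Ctrl and 27.5, 25.2 and 23.5 with BMP7, and rose by a log2 fold change of 0.45 (edgeR adjusted p = 0.00888). It was not called without Ctrl library 2 (log2 fold change 0.36, edgeR adjusted p = 0.0663). Neither of the 2 genes tested of binding protein proteolysis passed, in edgeR or DESeq2, and 1 was higher at an unadjusted p under 0.05. *Pappa*, which encodes PAPP-A, was singled out after its values were seen. It was at 5.20, 5.11 and 5.13 CPM in Ctrl and 5.09, 6.93 and 9.09 in BMP7 libraries 1, 3 and 4. Its adjusted p was 0.115 in edgeR. Its higher values were in the libraries with the higher adipocyte sums, and a link was not tested.

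Closer to the receptors, 2 of 7 further receptors and adaptors tested rose. *Sh2b2*, an adaptor of the insulin receptor, was at 40.7, 49.5 and 45.6 CPM in Ctrl and 83.4, 91.2 and 69.7 with BMP7, a log2 fold change of 0.85 (edgeR adjusted p = 8.41e-06). *Irs4* was at 5.06, 4.82 and 4.06 CPM in Ctrl and 7.04, 7.16 and 8.92 with BMP7, a log2 fold change of 0.73 (edgeR adjusted p = 0.00502), and of 0.60 with BMP7 library 1 alone. The groups did not overlap for either gene. Of 6 receptor inhibitors tested, *Grb14*, which binds the active insulin receptor, rose by a log2 fold change of 0.38, and *Enpp1*, named here although it falls outside the rule for named genes, fell by 0.36 on the log2 scale. *Grb10*, the paralog of *Grb14*, was too low to test, with 2, 2 and 1 counts in Ctrl and 10, 9 and 9 with BMP7, and was also singled out after its counts were seen. Without the filter on low counts its adjusted p was 0.0248 in edgeR's quasi-likelihood test, which, as for *Igf1*, does not compare with the main fit.

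Downstream, 3 of 11 PI3K and lipid phosphatase genes fell and 1 rose. *Pik3r2*, a regulatory subunit of PI3K, was at 390, 360 and 391 CPM in Ctrl and 266, 246 and 279 with BMP7, a log2 fold change of -0.53 (edgeR adjusted p = 2.40e-05). *Pik3ip1*, an inhibitor of PI3K, fell by 0.57 on the log2 scale, and *Pik3r1*, a further regulatory subunit that falls outside the rule for named genes, by 0.29. *Inppl1*, which encodes the lipid phosphatase SHIP2, was at 77.4, 75.2 and 72.4 CPM in Ctrl and 107, 106 and 111 with BMP7, a log2 fold change of 0.53. The groups of these 4 genes did not overlap. Of 9 genes around PDK1 and AKT, *Trib1* rose by a log2 fold change of 0.87 and *Trib3* fell by 0.37. *Trib3* was not called without Ctrl library 1 (adjusted p = 0.102), Ctrl library 2 (0.193), BMP7 library 1 (0.0846) or BMP7 library 3 (0.148), all in edgeR. Neither the 13 mTOR genes nor the 4 FoxO factors had a member past the thresholds, the former with a median log2 fold change of 0.01. As 11.4% of all genes tested were called, lists this short can lack a call without differing from the rest. DESeq2 called 0 in both lists as well, and at an unadjusted p under 0.05 in edgeR 1 mTOR gene was higher and 2 were lower, and 1 FoxO factor was lower.

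*Gsk3a*, a kinase that AKT inhibits, rose by a log2 fold change of 0.43, and *Tbc1d4*, an AKT substrate in glucose transporter traffic, fell by 0.41 on the log2 scale. Of 11 FoxO-regulated genes tested, *Gadd45a* and *Cited2* rose, *Fbxo32* fell and 8 did not pass. *Gadd45a*, a growth arrest gene, was at 4.43, 5.90 and 5.48 CPM in Ctrl and 14.1, 13.5 and 12.2 with BMP7, a log2 fold change of 1.33 (edgeR adjusted p = 3.65e-06), the largest of those called on the pathway list. *Cited2*, a transcriptional coregulator, rose by a log2 fold change of 0.63, and *Fbxo32*, which encodes the ubiquitin ligase atrogin-1, fell by 0.46. The FoxO-regulated genes thus passed in both directions, and *Irs2*, also known as a FoxO target, did not pass. Other genes overlap *Gsk3a*, *Inppl1* and *Gadd45a* over 28.3%, 20.3% and 19.1% of their exon length, where fragments were not counted.

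**Figure D5:**
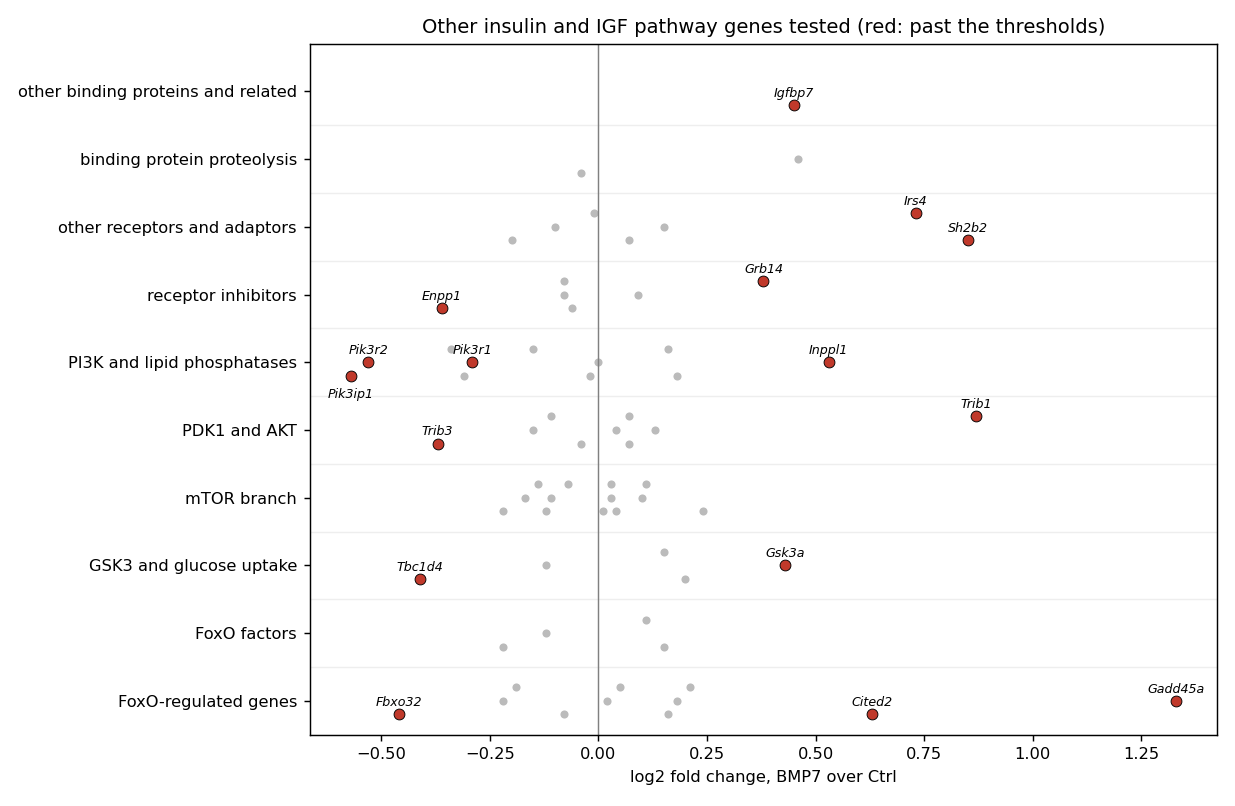
Log2 fold change of BMP7 over Ctrl (horizontal axis) of the 69 other pathway genes tested, by role (rows, with points spread vertically for sight only), with the 16 past the thresholds in red and named. *Gadd45a*, *Trib1* and *Sh2b2* lie farthest to the right, and the mTOR and FoxO factor rows hold no red point.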

How the data were processed

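Poly(A) RNA of 3 Ctrl and 3 BMP7 libraries was sequenced as read pairs. The authors aligned them with subjunc (Subread 2.0.3 per the submitters' processing notes) and deposited raw fragment counts per gene name from featureCounts, version 2.0.1 per the file headers, without strand and leaving out fragments that map to several places or genes. The methods name mm10 for alignment and the header an mm39 annotation, whose coordinates are given. Libraries were grouped by their labels.

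Counts were analysed in R 4.3.3 with edgeR 4.0.16, with its expression filter, TMM and the quasi-likelihood test over 15733 genes (4 residual degrees of freedom, biological coefficient of variation 0.0696), with Benjamini-Hochberg adjustment. Thresholds were 0.05 for the adjusted p and 1.2 for the fold change. SEs were derived from the F statistic. Permutations used a prior count of 2. The tests were tried on simulated data. DESeq2 1.42.0 and the other alternatives are in the closing section, and copies were sought with BLAST 2.17.0. Counts near the floor carry large counting error. The members and lists were chosen with earlier results of these data known. All members, 4 ligands, *Igfbp1*, *Igfbp7* and the 14 largest pathway changes past the thresholds were to be named, with *Id1* and *Smad6* as a check.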

Additional observations from a re-analysis of the deposited data

How the results depend on the processing

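With DESeq2, RLE or upper-quartile scaling, no filter on low counts, or at least 10 counts in every library, the same number of members, 4, was called. With glmTreat against a fold change of 1.2, a stricter test by construction, 1 member was higher, and 494 genes were higher and 254 lower among all, with 1 pathway gene lower in place of 7. With BMP7 library 1 alone against Ctrl, which leaves 4 libraries and takes the spread from Ctrl only, 1 member was called. Over the fits that left out 1 library, between 2 and 3 members were higher, and between 563 and 902 genes were lower among all, fewest without Ctrl library 2, whose cause was not tested. Of the named genes, the 25 that passed the filter kept their direction under these alternatives. *Igfbp2*, *Igf1*, *Igf2*, *Ins1*, *Ins2* and *Igfbp1* were not among them, and *Igf1* was at 0.0697 CPM in BMP7 library 1 against a Ctrl mean of 0.195. The numbers 1 and 3 occur in the columns of both conditions but only 2 pairs result and the labels tie them to nothing, so they were not taken as pairs. The replicate block takes the change only from libraries numbered 1 and 3. In that fit 3 members were higher, *Irs1* being under the fold threshold (log2 fold change 0.25), and 1152 genes were higher and 959 lower. A prior count of 0.5 left the permutation p of every member as it was. Depth limits *Igfbp2*, *Igfbp6*, *Igf1* and *Grb10*.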
